A study of Mus musculus with 6 samples.

Results

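The cardiac thick-filament myosin genes are the 7 genes Myh6, Myh7, Myh7b, Myl2, Myl3, Mybpc3 and Mylk3, taken by gene name from a deposited table of 78409 genes measured in 6 mouse hearts. Each name matched 1 row of the table, and all 7 members passed the filter on low values. Mice aged 11 months were studied, either lacking Ybx1 in cardiomyocytes (labelled Ybx1cmKO and called knockout here, 3 hearts) or littermates labelled Control (3 hearts). Ybx1 codes for a Y-box binding protein, which contacts nucleic acids through its cold-shock domain. The labels name the deletion as specific to cardiomyocytes but not the Cre driver or the alleles, and a control genotype beyond "Control" is not given in the sources used here. RNA came from the whole heart, so a lower level can reflect fewer cardiomyocytes or less RNA per cardiomyocyte. These cannot be told apart in bulk tissue. Atrial genes also differed widely in level between hearts, as given below. Nothing in the labels gives the number of litters. The p-values set a group difference against the spread between hearts within groups, for these 6 hearts only.

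The thick filament of heart muscle is a bundle of myosin II molecules. Each molecule has a pair of heavy chains, which carry the ATPase motor and the rod, and each heavy chain holds an essential and a regulatory light chain at its neck. In the adult mouse ventricle the fast alpha heavy chain, from Myh6, predominates over the slow beta heavy chain, from Myh7, and a shift towards Myh7 is a classical mark of the fetal gene program in the stressed rodent heart. Myosin-binding protein C lies across the filament and restrains the motor heads, and the cardiac myosin light chain kinase phosphorylates the regulatory light chain.

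After scaling with TMM factors, both cardiac heavy chain genes, Myh6 and Myh7, were at lower levels in each of the 3 knockout libraries than in any control library, but no member passed the test over all genes. With library totals alone, as in the deposited CPM, both genes overlapped between the groups. Mean levels in knockout hearts were 64.3% of control for Myh6 and 70.1% for Myh7. The light chain, binding-protein and kinase genes overlapped between the groups. By edgeR's quasi-likelihood test with Benjamini-Hochberg adjustment over 13717 tested genes, adjusted p ranged from 0.694 to 0.929 over the 7 members, and the share of all genes called at an adjusted p of 0.05 was 0% (705 genes had an unadjusted p under 0.05, and DESeq2 called 15 genes, none of them a member). Of the 7 members 5 had a log2 fold change below 0 and 2 above 0, where 48.9% of all tested genes lay below 0 (with library totals alone, 67.1% of all tested genes lay above 0). The members' median log2 fold change was -0.30, beside 0.01 over all tested genes. All knockout values lay below all control values in 2 of 7 members, beside 5.82% of all tested genes, and above them in 0 of 7, beside 6.26%. With library totals alone the count below was 0 of 7, beside 3.08% of all tested genes. With DESeq2 size factors it was 2 of 7, beside 6.30%. An unadjusted p under 0.05 with a lower level in knockout was found for the same 2 members (2.45% of all tested genes), and with a higher level for none (2.69%). The smallest p that an exact permutation test of 3 against 3 hearts can give is 0.1.

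**Figure D1:**
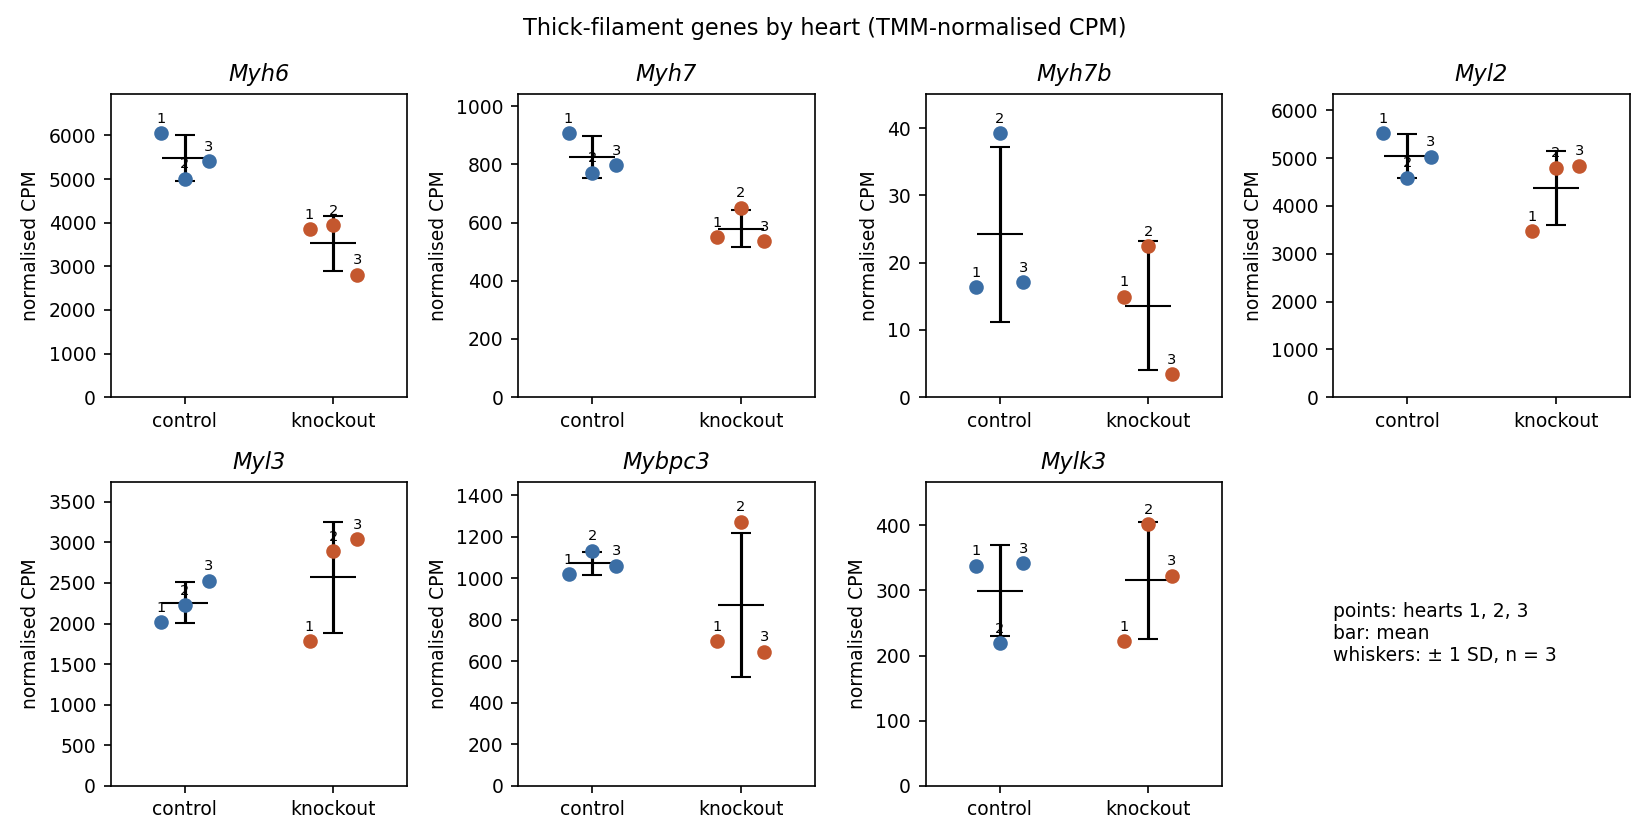
Normalised CPM (vertical axes, starting at 0) of the 7 thick-filament genes in control hearts (blue) and knockout hearts (orange), with the heart number beside each point, the mean as a bar and 1 SD as whiskers (n = 3 each). On this TMM scale Myh6 and Myh7 have all 3 knockout points below all 3 control points, which library totals alone do not give, and the other 5 genes overlap.

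Myh6 (ENSMUSG00000040752) encodes the alpha myosin heavy chain, the main motor of the adult mouse ventricle. Its level, as counts scaled to a common library size with TMM factors (normalised CPM), was 6054, 5010 and 5405 in controls 1, 2 and 3, against 3845, 3943 and 2807 in knockouts 1, 2 and 3, the order used throughout. On this scale the groups did not overlap, and knockout heart 3 was the lowest. In the deposited CPM, knockout heart 1 (4205) lay above control heart 2 (4026). The TMM factors of these libraries were 1.10 and 0.806. The means were 5490 ± 527 and 3531 ± 630 (SD, n = 3 each), with a log2 fold change of -0.64 (SE 0.25, 95% interval -1.20 to -0.08; edgeR adjusted p = 0.694; exact two-sided permutation p = 0.1). Each library held between 50482 and 81486 counts of Myh6, so counting error was small beside the spread between hearts. Without any 1 library the log2 fold change ranged from -0.74 to -0.49, and the last of these was the fit without knockout heart 3.

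Myh7 (ENSMUSG00000053093), the beta heavy chain gene, had 907, 771 and 797 normalised CPM in the controls, against 549, 652 and 535 in the knockouts. On this scale the highest knockout heart, number 2, lay below the lowest control heart, also number 2. In the deposited CPM, knockout heart 3 (636) was the highest of the knockouts and lay above control heart 2 (619). The means were 825 ± 72.4 and 579 ± 63.4 (SD, n = 3 each), with a log2 fold change of -0.51 (SE 0.20, 95% interval -0.97 to -0.05; edgeR adjusted p = 0.694; exact permutation p = 0.1). The range over the fits without 1 library was -0.62 to -0.45. Neither heavy chain difference passed the threshold over all genes.

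The balance between the heavy chains was read within each library, where it needs no scaling factor. Myh7 made up 13.0%, 13.3% and 12.9% of the Myh6 and Myh7 counts in the controls, against 12.5%, 14.2% and 16.02% in the knockouts. The Wilson 95% intervals, which cover counting error only, were 12.8% to 13.3%, 13.1% to 13.6% and 12.6% to 13.1% in control and 12.2% to 12.8%, 13.9% to 14.5% and 15.7% to 16.3% in knockout. Knockout heart 1 lay below all controls and knockout hearts 2 and 3 above them, so the groups overlapped. The means were 13.1% ± 0.243 and 14.2% ± 1.76 (SD, n = 3 each), a difference of 1.16 percentage points (exact two-sided permutation p = 0.4). The difference was 0.266 percentage points without knockout heart 3 and up to 2.03 percentage points without another library. The longest protein-coding transcripts of both genes have nearly equal length in GENCODE M21, 6113 bases for Myh6 and 6230 for Myh7. The 2 heavy chains are close paralogs, the deposited counts of both hold fractions of a read, and how reads matching both were shared out is not given in the sources used here, so the split between them is uncertain.

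**Figure D2:**
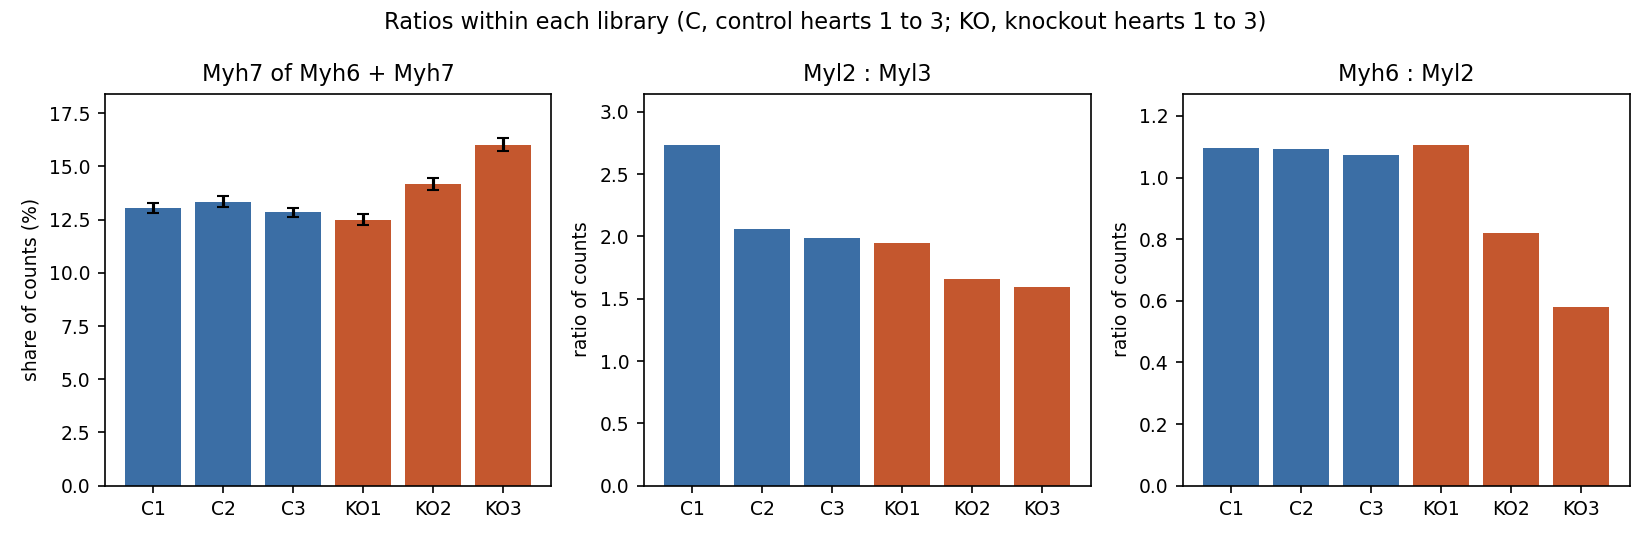
Ratios within each library for control hearts 1 to 3 (C1 to C3, blue) and knockout hearts 1 to 3 (KO1 to KO3, orange): Myh7 as a percentage of Myh6 and Myh7 counts with Wilson 95% intervals, Myl2 counts over Myl3 counts, and Myh6 counts over Myl2 counts, all on axes starting at 0. The Myh7 share is highest in KO3 at 16.02%, the 3 knockout Myl2 to Myl3 ratios lie below the control ratios, and the Myh6 to Myl2 ratio is near 1.1 in C1 to C3 and KO1 and lower in KO2 and KO3.

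Each heavy chain gene of the set carries a microRNA within it: miR-208a in Myh6, miR-208b in Myh7 and miR-499 in Myh7b. Their mature sequences are shown because the 3 host genes are the heavy chain members measured here. They come from RefSeq (GRCm38.p6), with the seed, bases 2 to 8 from the 5′ end, in capitals.
mmu-miR-208a-3p (chr14:54949072-54949093, minus strand): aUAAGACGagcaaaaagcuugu
mmu-miR-208b-3p (chr14:54975710-54975731, minus strand): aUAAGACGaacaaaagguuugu
mmu-miR-499-5p (chr2:155622893-155622913, plus strand): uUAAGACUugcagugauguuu
The microRNAs of Myh6 and Myh7 share the seed UAAGACG and differ at 3 positions outside it, G10A, A16G and C18U, counted from base 1 at the 5′ end of miR-208a. The microRNA of Myh7b shares bases 2 to 7 of that seed, UAAGAC. The libraries were primed with oligo(dT) and do not measure mature microRNAs: the genes Mir208a, Mir208b and Mir499 had 1, 1 and 0 counts over all 6 libraries. No level of these microRNAs can be read from the data.

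Myh7b (ENSMUSG00000074652), the host of miR-499, is an ancient slow-type heavy chain gene whose transcript is largely left untranslated in the mammalian heart. It was the weakest member, at 16.3, 39.3 and 17.1 normalised CPM in the controls, against 14.9, 22.5 and 3.39 in the knockouts. Control heart 2 was the highest and knockout heart 3 the lowest, with 425 and 61 counts, and the groups overlapped. The means were 24.2 ± 13.0 and 13.6 ± 9.60 (SD, n = 3 each) and the log2 fold change was -0.84 (SE 0.60, 95% interval -2.20 to 0.52; edgeR adjusted p = 0.694; exact permutation p = 0.4). The value was -0.32 without control heart 2, -0.37 without knockout heart 3 and -1.42 without knockout heart 2.

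The same 2 hearts were the extremes for nuclear noncoding RNAs. Malat1, a nuclear RNA, was at 9860 normalised CPM in control heart 2 and 562 in knockout heart 3, and at 3196 to 5638 in the other 4 hearts. Neat1, the scaffold RNA of paraspeckles, was at 1138 and 123 in those 2 hearts and at 485 to 844 in the others. Mitochondrial rRNA took 10.7% of counts in knockout heart 3 and 20.5% to 26.3% in the other 5. These genes were picked after their values were seen. The part of library composition in the level of Myh7b was not tested.

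**Figure D3:**
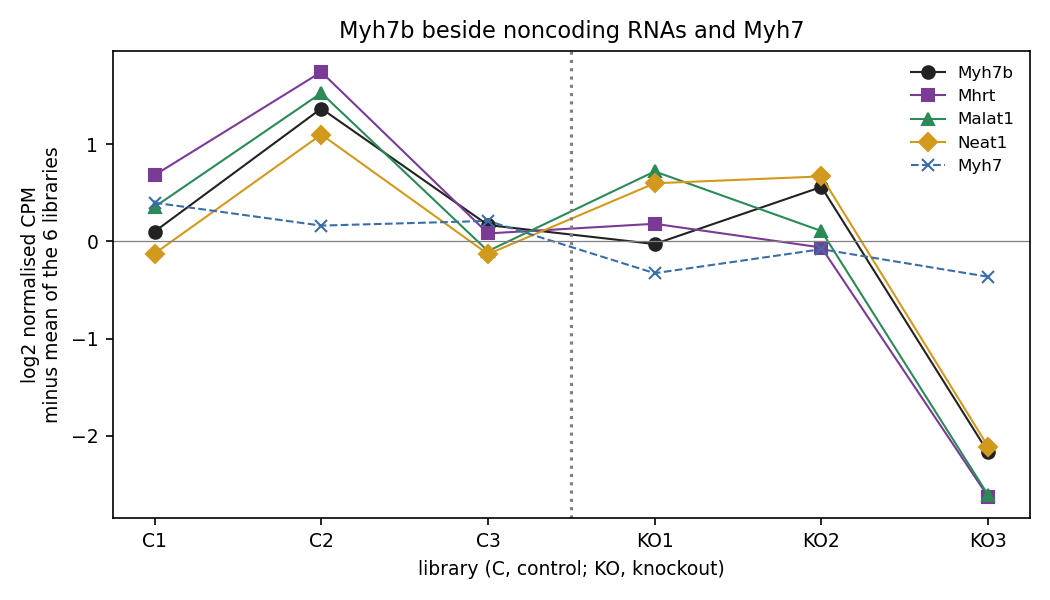
Log2 normalised CPM minus the mean of the 6 libraries (vertical axis) for Myh7b, Mhrt, Malat1, Neat1 and Myh7 in each control (C) and knockout (KO) heart; the lines join the values of 1 gene and carry no order. Myh7b and the 3 noncoding RNAs are highest in C2 and lowest in KO3, while Myh7 moves within a much narrower range.

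Mhrt, the lncRNA named Myheart, is transcribed from the strand opposite to Myh7 and overlaps the Myh7 gene over 3666 bases in GENCODE M21. The overlap is between whole gene spans, and how much of it is exon was not counted. The library protocol as described marks no strand, so in that stretch strand cannot tell reads of Mhrt and Myh7 apart. Mhrt was at 481, 1003 and 317 normalised CPM in the controls, against 340, 287 and 48.6 in the knockouts. The groups overlapped, and knockout heart 3 stood far below the other 5. The log2 fold change was -1.41 (SE 0.66, 95% interval -2.92 to 0.09; edgeR adjusted p = 0.694), and -0.84 without control heart 2 and -0.93 without knockout heart 3. The ratio of Mhrt to Myh7 counts was 0.530, 1.30 and 0.398 in the controls, against 0.619, 0.440 and 0.0909 in the knockouts, so the reads given to Mhrt did not keep a fixed proportion to those given to Myh7. Gm49130, on the strand opposite to the end of Myh6, was at 3.45 to 10.7 normalised CPM and is small beside Myh6.

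The regulatory light chain gene Myl2 (ENSMUSG00000013936), whose product the cardiac kinase phosphorylates, had 5523, 4590 and 5029 normalised CPM in the controls, against 3474, 4802 and 4839 in the knockouts. Knockout heart 1 was the lowest, and knockout hearts 2 and 3 lay within the control range. The means were 5047 ± 467 and 4372 ± 778 (SD, n = 3 each; log2 fold change -0.21, SE 0.25, 95% interval -0.77 to 0.35; edgeR adjusted p = 0.764; exact permutation p = 0.4).

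Myl3 (ENSMUSG00000059741), the ventricular essential light chain gene, had 2018, 2227 and 2530 normalised CPM in the controls, against 1783, 2890 and 3039 in the knockouts. Knockout heart 1 lay below every control heart and knockout hearts 2 and 3 above every one. The means were 2258 ± 257 and 2571 ± 686 (log2 fold change 0.19, SE 0.27, 95% interval -0.42 to 0.80; edgeR adjusted p = 0.799; exact permutation p = 0.5). Myl3 and Mylk3 were the 2 members with a fold change above 0.

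Although each light chain overlapped between groups, their ratio did not. The ratio of Myl2 to Myl3 counts was 2.74, 2.06 and 1.99 in the controls, against 1.95, 1.66 and 1.59 in the knockouts, with means of 2.26 ± 0.413 and 1.73 ± 0.189 (SD, n = 3 each; exact two-sided permutation p = 0.1). Control heart 3 and knockout heart 1 were close, at 1.99 and 1.95. This ratio was singled out after its values were seen. The difference was -0.53, and -0.29 without control heart 1.

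The ratio of the main heavy chain to the regulatory light chain split the knockout hearts. Myh6 counts over Myl2 counts were 1.10, 1.09 and 1.07 in control hearts and 1.11 in knockout heart 1, but 0.821 and 0.580 in knockout hearts 2 and 3. The exact permutation p was 0.4, since knockout heart 1 lay above all controls. On the TMM scale both Myh6 and Myl2 in knockout heart 1 lay below every control heart, whereas in knockout hearts 2 and 3 Myh6 did and Myl2 lay within the control range.

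Mybpc3 (ENSMUSG00000002100) encodes cardiac myosin-binding protein C, a frequent site of mutations in inherited hypertrophic cardiomyopathy. It was even across control hearts, at 1021, 1134 and 1061 normalised CPM, and spread in knockout hearts, at 698, 1273 and 646. Knockout hearts 1 and 3 lay below every control heart and knockout heart 2 above every one. The means were 1072 ± 57.3 and 872 ± 348 (SD, n = 3 each; log2 fold change -0.30, SE 0.29, 95% interval -0.95 to 0.36; edgeR adjusted p = 0.724; exact permutation p = 0.4). The size of the difference moved with each knockout heart: the log2 fold change was -0.69 without heart 2, -0.16 without heart 1 and -0.12 without heart 3.

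Mylk3 (ENSMUSG00000031698), the cardiac myosin light chain kinase gene, had 338, 219 and 342 normalised CPM in the controls, against 222, 402 and 323 in the knockouts. The lowest control heart was at nearly the same level as the lowest knockout heart. The means were 299 ± 70.0 and 316 ± 90.2 (log2 fold change 0.08, SE 0.28, 95% interval -0.56 to 0.71; edgeR adjusted p = 0.929; exact permutation p = 0.9). The sign turned without control heart 2 (-0.12) or without knockout heart 2 (-0.15).

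**Figure D4:**
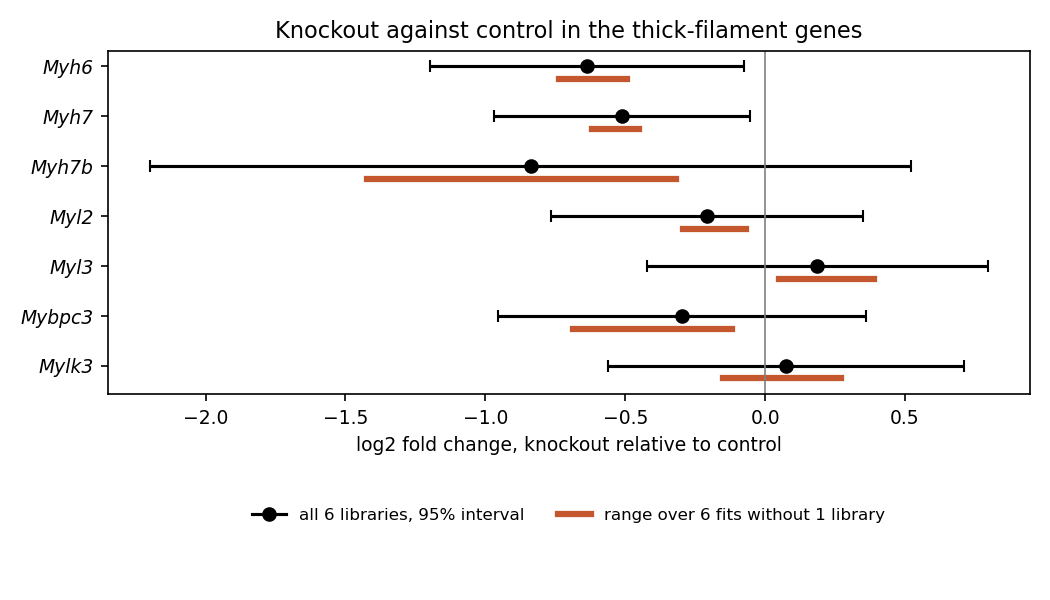
Log2 fold change of knockout relative to control (horizontal axis) for the 7 members, as points with 95% intervals from edgeR's fit of all 6 libraries, and below each the range over the 6 fits that left out 1 library (orange). The intervals of Myh6 and Myh7 end below 0 before adjustment for the number of genes, and those of the other 5 members include 0.

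Per kilobase of the longest protein-coding transcript, the members in control hearts ranked Myl2, Myl3, Myh6, Mybpc3, Myh7, Mylk3 and Myh7b. Their control means on this scale were 5678 ± 525, 2410 ± 275, 898 ± 86.2, 257 ± 13.8, 132 ± 11.6, 81.0 ± 18.9 and 3.93 ± 2.11 normalised CPM per kilobase. Over all 6 hearts only the neighbours Myh7 (85.9 to 146) and Mylk3 (59.2 to 109) had ranges that overlapped. The cDNA was primed at the poly(A) tail, and whether reads covered whole transcripts evenly is not given, so the order between long and short genes depends on that. The 7 genes together took 1.12% to 1.5996% of counts in control hearts and 1.16% to 1.45% in knockout hearts.

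Transcript length moved with library across the whole transcriptome. Among 586 tested protein-coding genes with a longest transcript of at most 1000 bases, the bin of Myl2 (889 bases) and Myl3 (937 bases), the median log2 level relative to the mean of the 6 libraries was 0.43 in knockout heart 3 and -0.28 in control heart 2. Among 1717 genes above 6000 bases, the bin of Myh6, Myh7 and Myh7b (6163 bases), it was -0.19 in knockout heart 3, -0.04 in knockout heart 2, 0.09 in knockout heart 1 and -0.03 to 0.14 in control hearts. The median log2 fold change was 0.24 in the short bin and -0.10 in the long bin. The part of length in the members' differences was not tested.

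**Figure D5:**
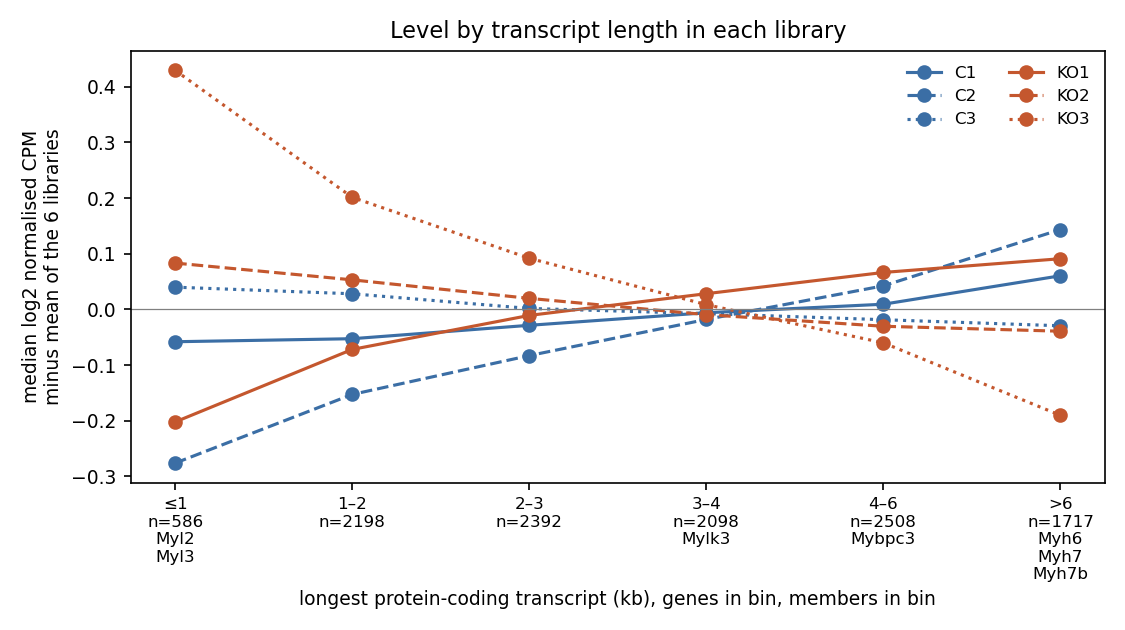
Median log2 normalised CPM minus the mean of the 6 libraries (vertical axis) for tested protein-coding genes in 6 bins of longest transcript length in kilobases (horizontal axis, with the number of genes and the members in each bin), 1 line per library (control C, blue; knockout KO, orange). KO3 runs from 0.43 in the shortest bin to -0.19 in the longest, and C2 runs the other way, from -0.28 to 0.14.

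To set the members against other cardiomyocyte genes, their log2 levels were compared with the mean log2 level of 20 genes of ventricular cardiomyocytes in the same library. These include contractile, calcium-cycling, mitochondrial and metabolic genes. That mean varied from 0.33 below to 0.24 above its average over the 6 libraries, lowest in knockout heart 1 (-0.33) and highest in knockout heart 3 (0.24). Relative to it, Myh7 was -0.41, -0.42 and -0.79 in the controls, against -0.80, -0.998 and -1.40 in the knockouts, a difference of -0.53 (exact permutation p = 0.1) with groups that met but did not overlap. Myh6 was 2.32, 2.28 and 1.97 in the controls, against 2.00, 1.60 and 0.99 in the knockouts, a difference of -0.66 (exact permutation p = 0.2), and here knockout heart 1 lay above control heart 3. With 7 mitochondrial and metabolic genes left out of the reference, the difference of Myh6 was -0.65 and the groups did not overlap (exact permutation p = 0.1). The other 5 members overlapped, with differences between -1.05 (Myh7b) and 0.14 (Myl3). The share of all tested genes without overlap on this scale was not counted. Without knockout heart 3 the differences relative to the 20 genes were -0.39 for Myh6, -0.36 for Myh7, -0.18 for Myh7b and -0.09 for Mybpc3 (-0.38 with all hearts).

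The upstream 250 bases of Myh6, Myh7 and Myl3 are shown because Myh6 and Myh7 had the 2 differences without overlap on the TMM scale and Myl3 had the highest fold change of the set. They come from RefSeq (GRCm38.p6), 5′ to 3′ on the strand of the gene and ending just before the annotated start. Capitals mark CCAAT, the core of the Y-box after which YBX1 is named, and CATTCC, the core of the element bound by TEAD factors (MCAT), each on either strand (as ATTGG or GGAATG in reverse).
Myh6 (chr14:54966608-54966857, minus strand): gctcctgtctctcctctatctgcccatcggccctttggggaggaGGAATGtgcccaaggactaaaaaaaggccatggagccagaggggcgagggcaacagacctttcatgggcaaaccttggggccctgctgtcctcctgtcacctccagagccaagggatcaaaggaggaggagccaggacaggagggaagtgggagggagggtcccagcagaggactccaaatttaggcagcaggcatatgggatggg
Myh7 (chr14:54994627-54994876, minus strand): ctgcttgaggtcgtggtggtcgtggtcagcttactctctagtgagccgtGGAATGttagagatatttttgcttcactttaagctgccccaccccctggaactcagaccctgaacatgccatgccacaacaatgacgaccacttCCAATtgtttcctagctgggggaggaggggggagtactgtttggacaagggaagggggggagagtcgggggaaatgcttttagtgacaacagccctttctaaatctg
Myl3 (chr9:110763428-110763677, plus strand): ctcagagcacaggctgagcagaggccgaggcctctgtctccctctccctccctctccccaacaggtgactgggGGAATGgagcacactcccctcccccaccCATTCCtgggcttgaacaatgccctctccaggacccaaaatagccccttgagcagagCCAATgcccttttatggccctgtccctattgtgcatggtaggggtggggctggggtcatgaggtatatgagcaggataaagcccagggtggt
CATTCC on either strand began 206 bases before the start of Myh6, 201 before that of Myh7 and 177 and 149 before that of Myl3, and CCAAT began 107 bases before the start of Myh7, where it overlaps an E-box (CANNTG), and 92 before that of Myl3. All 7 members matched a RefSeq start, with 10 starts in all, and the windows of both Myh7 starts overlap and hold the same CCAAT. Only the printed Myh7 window holds CATTCC, and the window of the other Myh7 start has no match to it. CCAAT also stood at the upstream end of the window of 1 Mylk3 start, and CATTCC 148 bases before the other. Of all 32851 windows of this length, 33.8% held CCAAT and 12.6% held CATTCC. A thyroid hormone receptor half-site (AGGTCA, 14.0% of windows) stood before Myh7b and 1 start of Myl2 and in none of the 3 windows printed, and these matches describe letters only.

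The atrial and embryonic counterparts of the light chains, Myl4 and Myl7, were low and differed between hearts by far more than any member. Myl7, the atrial regulatory light chain, was at 2.91, 21.6 and 74.4 normalised CPM in the controls, against 0.612, 14.3 and 46.7 in the knockouts. Myl4, the atrial essential light chain, was at 4.45, 27.0 and 96.6 and at 1.56, 27.8 and 92.5. In each group heart 3 was highest and heart 1 lowest, and neither gene differed in direction between groups beyond this spread (log2 fold changes of -0.68 for Myl7 and -0.07 for Myl4, edgeR adjusted p 0.841 and 0.984), and without control heart 3 both signs turned (0.76 and 1.38). The summed level of 10 atrial genes ranged from 208 to 486 normalised CPM in control and from 204 to 392 in knockout hearts. The share of atrial tissue in each heart's RNA, and its part in the members' differences, were not tested. Without heart 3 of both groups, the log2 fold change of Myh6 was -0.50 and that of Myh7 -0.48. Myl1 was at 6.93 to 22.7 normalised CPM, and of the skeletal and embryonic heavy chains Myh1, Myh2, Myh3, Myh4, Myh8, Myh13 and Myh15 none reached 1 normalised CPM in any heart.

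Genes that work with the thick filament gave no call either. Of 7 genes of titin and the M-band, which anchor the filament in the sarcomere, 2 lay above and 5 below 0 (median log2 fold change -0.31). On the TMM scale the groups did not overlap for 2, both lower in knockout, beside 5.82% of all tested genes. Titin, Ttn, was at 4700, 3631 and 4004 normalised CPM in the controls, against 2589, 3069 and 1271 in the knockouts (log2 fold change -0.83, 95% interval -1.60 to -0.06, and -0.54 without knockout heart 3). Myomesin, Myom1, was at 501, 595 and 523 and at 367, 470 and 256 (-0.57, interval -1.14 to 0.01, and -0.36 without knockout heart 3). These are long transcripts, lowest in knockout heart 3, as Myh6 was. Of 3 other tested genes grouped here with the myosin-binding proteins, 1 lay above and 2 below 0. The 1 above 0 was Csrp3 (0.32), which is not itself a myosin-binding protein gene and is also in the cardiomyocyte reference. Those below were Mybphl (-0.19) and the fast skeletal form Mybpc2. Mybpc2 was at 9.02 ± 1.28 in control and 6.62 ± 1.14 in knockout hearts (SD, n = 3 each, -0.45).

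Among 13 tested light chain kinases, phosphatase subunits and calmodulins, 7 lay above and 6 below 0 (median 0.05). On the TMM scale all knockout values lay above all control values for 1 of them, beside 6.26% of all tested genes. They lay below for 1, beside 5.82%. Ppp1cb, the catalytic subunit of the myosin phosphatase, was at 189, 147 and 204 normalised CPM in the controls, against 240, 231 and 443 in the knockouts, with no overlap on the TMM scale (log2 fold change 0.76, SE 0.29, edgeR adjusted p = 0.694, and 0.39 without knockout heart 3). Mylk4, a muscle kinase related to Mylk3, was at 74.4, 41.1 and 45.0 and at 40.8, 37.5 and 38.9 (-0.45, and -0.15 without control heart 1). The calmodulin gene Calm2 was at 64.9 ± 11.8 and 96.9 ± 34.3, with overlap (0.58, and 0.25 without knockout heart 3). Of 12 folding and assembly genes 8 lay above and 4 below 0 (median 0.09). The chaperone gene Unc45a was at 4.46 ± 0.884 in control and 3.01 ± 0.558 in knockout hearts (-0.56). The related and more abundant Unc45b of the same list showed no such difference. It was at 51.7, 48.5 and 51.6 normalised CPM in the controls, against 38.1, 51.0 and 66.5 in the knockouts (0.04). Unc45b was named after its values were seen. The chaperone Hsp90ab1 was at 1680 ± 171 and 1368 ± 324 (-0.30, and -0.12 without knockout heart 3).

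Of 28 tested regulators of the cardiac myosin genes, 12 lay above and 16 below 0, with a median log2 fold change of -0.04. Thyroid hormone receptors activate Myh6 and repress Myh7. Thrb was at 19.3, 18.2 and 17.0 normalised CPM in the controls, against 12.7, 16.6 and 11.5 in the knockouts (-0.42, SE 0.20, edgeR adjusted p = 0.694), with groups that did not overlap on the TMM scale. Thra was at 33.3, 30.1 and 31.1 and at 27.9, 24.4 and 21.5 (-0.36), again without overlap on that scale. With library totals alone the groups overlapped for Thrb, Thra, Ppp1cb, Mylk4 and Unc45a, and did not for Ttn, Myom1, Mybpc2 and Tead1. On that scale 3.08% of all tested genes lay wholly below the controls and 5.22% wholly above. The SRF coactivator gene Myocd was at 73.6, 41.1 and 36.9 and at 32.6, 38.1 and 21.7 (-0.72, and -0.35 without control heart 1). Tead1, whose product binds MCAT elements, was at 70.5, 63.1 and 75.1 and at 87.8, 92.1 and 78.7 (0.31). It was the only regulator of the 28 with every knockout heart above every control heart, beside 6.26% of all tested genes. For 2 of the 28 every knockout heart lay below every control heart on the TMM scale, beside 5.82%. Thra and Tead1 were named after their values were seen.

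Across the 6 libraries Myh6 and Myh7 had like profiles. As a measure of likeness, the root-mean-square difference between log2 profiles centred on their own means was 0.14 between them, where the median to Myh6 over 5713 protein-coding genes was 0.45, and Myh7 was the third closest gene to Myh6. Counted from Myh7, Myh6 ranked 22. The closest genes to Myh6 outside the set were Slc25a23 (0.12), Alpl (0.13) and Slc44a2 (0.15), and to Myh7 Slc25a23 (0.07), Ubxn6 (0.08) and Tob2 (0.08). Mylk3, at 0.49 from Myh6, Myl3, at 0.56, and Myh7b, at 0.80, were farther from it than the median gene.

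Total counts were 12270796 to 15141525 per library. Ybx1 itself was at 813 to 898 normalised CPM in control hearts and 110 to 203 in knockout hearts, which matches the labels. The 20 reference genes of ventricular cardiomyocytes were all detected, with a summed level of 30344 to 39618 normalised CPM in control and 27635 to 41425 in knockout hearts, as heart tissue would show. The summed levels of 10 fibroblast genes (1499 to 1880 and 1821 to 2408), 10 endothelial genes (1815 to 2227 and 1500 to 2702), 10 smooth muscle and pericyte genes (686 to 807 and 490 to 813), 10 macrophage genes (113 to 149 and 148 to 210) and 6 erythroid genes (3043 to 4718 and 3564 to 6853) overlapped between control and knockout hearts. All 10 fibroblast genes, all 6 erythroid genes and 9 of 10 macrophage genes had a log2 fold change above 0, and 9 of 10 smooth muscle and pericyte genes one below 0, with none called. Their part in the members' differences was not tested. Of 14 skeletal muscle genes, summed at 158 to 455 and 51.4 to 166, the defining heavy chains Myh1, Myh2 and Myh4 were at or near 0. Acta1 was the largest part of that sum in every heart. It was at 138, 267 and 420 normalised CPM in the controls, against 40.2, 147 and 23.4 in the knockouts. Knockout heart 2 lay above control heart 1, so the groups overlapped. The log2 fold change of Acta1 was -1.97 (SE 0.67, edgeR unadjusted p = 0.017, adjusted p = 0.694). It was -3.13 without knockout heart 2 and -1.53 without control heart 3. Of 6 lung epithelial genes 5 had no count.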

How the data were processed

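Per the labels' protocols, total RNA was extracted with TRIzol, reverse transcription used an anchored oligo(dT) primer, and tagmented cDNA was amplified by PCR. Per the submitters' processing notes, the build was mm39 and the tools, whose roles are not stated, were featureCounts, STAR 2.7.11, Subread 2.1.1, edgeR 4.0.16 and SAMtools 1.22.1. Not given in the sources used here are the annotation, the strand setting and the treatment of multi-mapping reads. The authors deposited estimated counts, some with fractions of a read, and CPM, which is each count scaled to its column's total. Counts were rounded and tested here with edgeR 4.0.16 in R 4.3.3 (TMM, quasi-likelihood test, group as the only term) for genes of at least 1 CPM in at least 3 libraries. Normalised CPM is scaled by TMM. Intervals use the test's F statistic. The fit was checked on simulated counts. Alternatives used limma 3.58.1 and DESeq2 1.42.0. Every pair of libraries differed by more than sampling noise. The members and gene lists were chosen with earlier results of these data known. Genes named outside the members came from the 3 of smallest p and the most abundant of each list, or are stated as chosen later. Not every gene that met this rule is reported here. Overlaps and lengths are from GENCODE M21 (GRCm38), matched on gene ID, with a length for 99.2% of tested protein-coding genes.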

Additional observations from a re-analysis of the deposited data

How the results depend on the processing

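No member passed an adjusted p of 0.05 in any of the 18 alternatives (lowest adjusted p 0.138, Myh7b with no filter on low counts), and 6 members kept their sign in all of them. Mylk3 turned to -0.12 without control heart 2 and -0.15 without knockout heart 2, and relative to the cardiomyocyte reference its difference of 0.05 turned to -0.06 and -0.10 without the same hearts (range -0.0951 to 0.140 without 1 library). Without 1 library, log2 fold changes ranged from -1.42 to -0.32 (Myh7b), -0.29 to -0.07 (Myl2), 0.05 to 0.39 (Myl3), -0.69 to -0.12 (Mybpc3) and -0.15 to 0.27 (Mylk3). The number of members with knockout hearts all below controls was 2 to 4 without 1 library, and 4 without knockout heart 2, where 11.6% of all tested genes did the same. The share of all tested genes was not counted for the other fits without 1 library. The number of such members was 0 with library totals alone, an alternative added after the data were seen. The count of genes called over the whole table was 0 with all 6 libraries, 0 to 1 without 1 library, 133 without a filter, 15 in DESeq2 and 6 without heart 3 of both groups, a fit added after the data were seen. With library totals alone the median of all genes was 0.17, and Myh6 was at -0.51, Myh7 at -0.37 and Myl2 at -0.06. With the heart number as a replicate block 5 genes were called, none a member. With that block 1807 genes had an unadjusted p under 0.05 by edgeR's test, beside 705 without it. The deviations of same-numbered hearts correlated at -0.11, 0.45 and 0.58, and those of differently numbered hearts at -0.70 to 0.57. These values do not settle whether the numbers pair the hearts. Nothing in the labels pairs them, so the main fit used the group alone. Myh7b had the fewest counts among the members, with as few as 61 in a library, and its level spanned 11.6-fold between hearts.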

Other observations

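Among the myosin II genes of smooth muscle and nonmuscle cells, 2 of 8 tested genes lay above and 6 below 0 (median log2 fold change -0.20), and none passed edgeR's test over all genes. Myl12a, a nonmuscle regulatory light chain gene, was at 222, 182 and 310 normalised CPM in control hearts and 249, 354 and 625 in knockout hearts (log2 fold change 0.78, SE 0.35, 95% interval -0.03 to 1.59), and 0.34 without knockout heart 3. Knockout heart 3 was the highest. Myh10, nonmuscle heavy chain IIB, was at 14.6, 13.5 and 14.5 and at 12.5, 9.71 and 12.1 (-0.31, interval -0.72 to 0.10). Its groups did not overlap after TMM scaling and did with library totals alone. Of the 8 tested genes it alone did not overlap on the TMM scale, where 5.82% of all tested genes lay wholly below the controls.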
